A study of Homo sapiens with 11 samples.

Results

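The miR-548 family was followed across 6 human tumour-derived cell lines. Its members were taken as every mature miRNA name beginning with hsa-miR-548 in the deposited tables, which gave 80 of 2588 listed names (3.09%). These 80 names stood on 101 of 2813 table rows, because 12 of them were listed at several genomic copies (33 rows), and the rows of one name were summed. The precursors were spread over 22 chromosomes. Of the 80 names, 28 carried the 5p ending, 28 the 3p ending and 24 no arm. The miR-548 genes are primate-specific and are held to derive from MADE1, a short transposable element of the mariner class whose inverted repeats fold into a near-perfect hairpin when transcribed. Drosha and Dicer cut such a hairpin into a short duplex, and an Argonaute protein keeps one strand, whose seed (bases 2 to 8) pairs with target mRNAs. Because the copies come from one element, many mature sequences of the family resemble each other closely, and many are rich in A and U.

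Small RNA-seq had been performed on untreated parental cells of all 6 lines. A549 (lung cancer), ES2 (ovarian cancer) and MV3 (melanoma) had 2 libraries each and PANC1 (pancreas cancer) had 1, all prepared from 50 ng total RNA with a NEXTflex small RNA kit. BE(2)C (neuroblastoma) and HepG2 (liver cancer) had 2 libraries each, prepared by the provider Novogene. Cells were harvested 48 h after seeding, except that for BE(2)C the protocol gave 24 h and the sample characteristics 48 h. According to the study's methods the libraries of a line were biological replicates, and the sequencer, the read length and the site changed together with the preparation. Preparation and cell line thus cannot be told apart in any comparison between the 4 NEXTflex and the 2 Novogene lines. Each group is 1 established line, and a line stands for its tumour type only to that extent.

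Levels are given as CPM, the reads of a miRNA per 1000000 reads assigned to all listed miRNAs of the library. A library held between 1173902 (MV3 replicate 1) and 12137452 (HepG2 replicate 2) such reads. A count of 0 allows up to 3 reads, called the floor here, which amounts to 2.56 CPM for MV3 replicate 1 and to 0.247 CPM for HepG2 replicate 2. The labels were checked against 4 marker miRNAs chosen after earlier results were known. The neural miR-9-5p reached 15875 and 17555 CPM in BE(2)C and at most 1739 CPM elsewhere. The hepatocyte miR-122-5p stood at 64.0 and 50.0 CPM in HepG2, but at 823 CPM in BE(2)C replicate 1 against 5.96 CPM in replicate 2. It had 31.0 to 45.1 CPM in MV3 and PANC1 and 1.94 to 24.8 CPM in A549 and ES2. This marker thus set HepG2 only narrowly apart from MV3 and PANC1. The melanocyte miR-211-5p had 0 reads in all 11 libraries, MV3 included, and the epithelial miR-200c-3p lay between 14.5 and 83.2 CPM in all of them. BE(2)C replicate 1 therefore stood apart in a liver marker, and results on BE(2)C are given with and without it.

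A RefSeq mature sequence (GRCh38.p14) was matched by name for 54 of the 80 members. Of the 6 members whose line mean reached 10 CPM, miR-548e-3p and miR-548h-5p had no match, so they are missing from the sequences and from the genomic matches. The sequences below are those of the other abundant members and of near-identical relatives that were hardly read. They run 5′ to 3′, with the seed in capitals. The first pair differs by 1 base, A2C (the base of miR-548ah-3p, the position from the 5′ end, then the base of miR-548o-3p), which lies inside the seed. MiR-548o-3p collected 6730 reads over all libraries and miR-548ah-3p collected 4. MiR-548k and miR-548l share the first 7 bases and differ at the last base of the seed. MiR-548f-3p and miR-548ar-3p share a seed. MiR-548ar-5p and miR-548aq-3p have the highest numbers of genomic matches, and neither had a read.
miR-548o-3p: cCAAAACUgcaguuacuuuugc
miR-548ah-3p: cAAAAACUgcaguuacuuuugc
miR-548aq-3p: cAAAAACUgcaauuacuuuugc
miR-548f-3p: aAAAACUGuaauuacuuuu
miR-548ar-3p: uAAAACUGcaguuauuuuugc
miR-548k: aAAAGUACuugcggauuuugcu
miR-548l: aAAAGUAUuugcggguuuuguc
miR-548j-5p: aAAAGUAAuugcggucuuuggu
miR-548n: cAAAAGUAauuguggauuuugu
miR-548ar-5p: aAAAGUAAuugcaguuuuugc

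The 54 sequences were between 18 and 23 bases long and had a median A and U content of 65.9%, against 47.8% for 2227 other listed miRNAs with a sequence. The most common run of 8 bases among them was AAAAGUAA, found in 16 members (29.6%) and in 0 of the 2227 others. Its reverse complement UUACUUUU was found in 14 members (25.9%) and in 2 of the others (0.0898%), and no member held both, so that 30 members carried the one or the other. Of the 16 members with the first run, 3 were above the floor in every library of at least 1 line, and of the 14 with the second run, 3 were. The 54 members had 29 different seeds. The largest group, AAAGUAA, had 11 members, of which 5 had a read and 1, miR-548j-5p, passed the floor in a line. Second was AAAAACU with 7 members, of which 4 had a read and none passed the floor in a line. A pair of names with a common seed passed it in the AAAACUG group, miR-548f-3p and miR-548ar-3p. Some names cannot be told apart by a read: miR-548aj-5p, miR-548g-5p and miR-548x-5p are identical over 23 bases and had 0 reads each. Other names lie inside a longer one, so a read no longer than the shorter name fits either. The 18 bases of miR-548av-5p (0 reads) are contained in miR-548k (663 reads). The 20 bases of miR-548av-3p (10 reads) are contained in miR-548o-3p (6730 reads).

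Each mature sequence was also matched without mismatch to both strands of the chromosomes of hg38. The median member had 2 matches and the highest had 584, while the median of the other miRNAs was 1. More than 5 matches were found for 14 of 54 members (25.9%) and for 42 of the 2227 others (1.89%). Of the 40 members with at most 5 matches, 12 (30.0%) were above the floor in a line and 3 reached a line mean of 10 CPM. Of the 14 members with more matches, 1 (7.14%) was above the floor. That member was miR-548f-3p, with 34 matches. MiR-548o-3p had 2 matches, which is also its number of listed copies, whereas miR-548ah-3p, 1 base away, had 59. MiR-548k, miR-548l, miR-548j-5p and miR-548n had 1 each. The limit of 5 was set after the values were seen, and the sources used here do not say what the counting did with a read that aligns to several places, so its part in these counts was not tested.

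**Figure D1:**
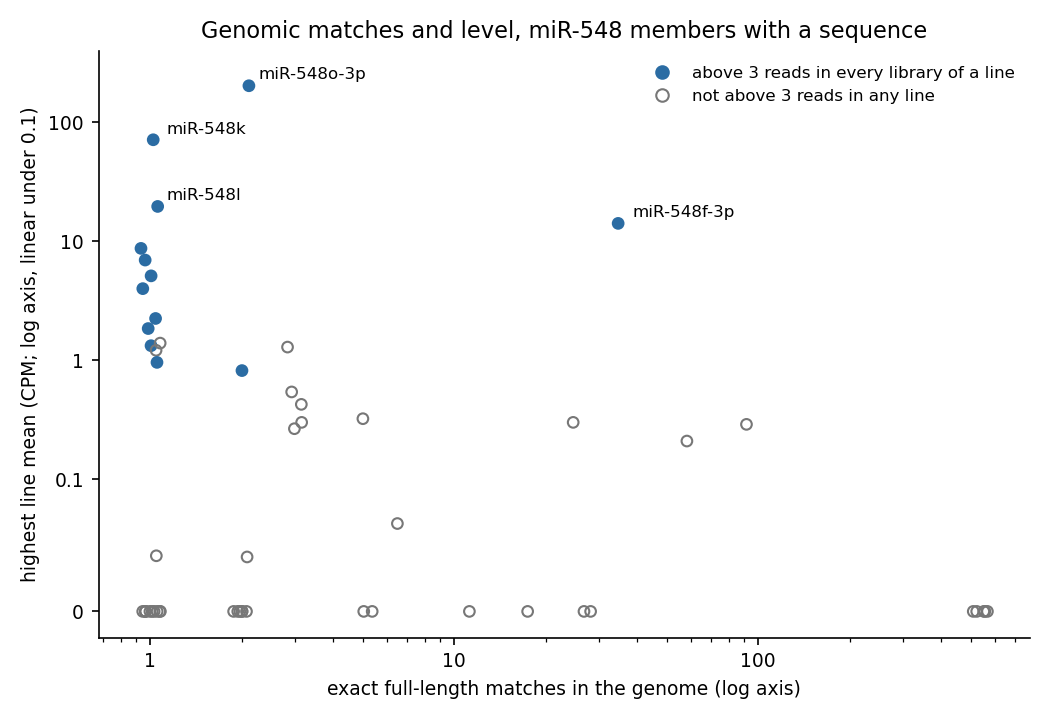
Exact full-length matches in hg38 (x axis, log scale, points spread slightly sideways) against the highest line mean in CPM (y axis, log scale, linear under 0.1) for the 54 members with a sequence. Filled points passed 3 reads in every library of at least 1 line: 12 of the 13 lie at 5 matches or fewer, and miR-548f-3p is the other one.

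The annotation (GENCODE release 44, hg38) placed most abundant members inside introns. MIR548K (chromosome 11, 70283955 to 70284070, plus strand) lies in an intron of PPFIA1, and MIR548L (chromosome 11, 94466495 to 94466580, minus strand) in an intron of MRE11, which encodes a nuclease of DNA break repair. MIR548E (chromosome 10, 110988926 to 110989013, plus strand) lies in an intron of SHOC2, a scaffold of RAS signalling. The first copy of miR-548o, MIR548O (chromosome 7, 102405742 to 102405855, minus strand), lies opposite to an intron of PRKRIP1, and the second, MIR548O2 (chromosome 20, 38516563 to 38516632, plus strand), in an intron of RALGAPB. Over the 26 annotated loci of the members named here, 17 lay in an intron of a coding gene on the same strand, 3 only opposite to a coding gene, 1 inside a non-coding gene (intronic) and 5 in no annotated gene, and none overlapped an exon.

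Detection was sparse. Of the 80 members, 40 had 0 reads in all 11 libraries, and the other 40 (50.0%) had at least 1, against 1608 of all 2588 listed miRNAs (62.1%). More than 3 reads in at least 1 library were found for 26 members, and 18 passed this floor in every library of at least 1 line. Only miR-548e-3p and miR-548k did so in all 6 lines, and 7 members did so in a single line. For these counts above the floor the share of all listed miRNAs was not computed. The line mean reached 10 CPM for 6 members (7.50%), against 546 of all listed miRNAs (21.1%), and 100 CPM for 1. The median of the highest line mean was 0.0206 CPM for members and 0.352 CPM for all listed miRNAs.

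By line, A549 had 4 members above the floor in every library, ES2 5, MV3 6, PANC1 9, BE(2)C 10 and HepG2 9. As a share of the family this ran from 5.00% in A549 to 12.5% in BE(2)C, while for all listed miRNAs it ran from 15.1% in ES2 to 28.8% in BE(2)C. In single libraries the counts were 5 and 8 (A549), 6 and 8 (ES2), 7 and 8 (MV3), 9 (PANC1), 15 and 12 (BE(2)C) and 10 and 11 (HepG2). As a share of the family they ran from 6.25% (A549 replicate 1) to 18.75% (BE(2)C replicate 1). For all listed miRNAs the share ran from 17.1% (ES2 replicate 1) to 34.4% (BE(2)C replicate 1). The 5 deepest libraries, those of PANC1, BE(2)C and HepG2, had the 5 highest counts, so depth moved with detection. When every library was held to the level that 3 reads give in the shallowest one, 2.56 CPM, fewer members passed in the Novogene lines. Above this level in every library were 3 members in A549, 5 in ES2, 6 in MV3, 7 in PANC1, 2 in BE(2)C and 2 in HepG2. The share of all listed miRNAs above this level was not computed. Whether the lower counts in the Novogene lines are particular to the family was therefore not tested. In single libraries BE(2)C had 3 and 4, which overlapped with 4 and 3 in A549. Without BE(2)C replicate 1 the count for BE(2)C was 12, and without A549 replicate 1 or ES2 replicate 1 the counts for those lines rose to 8 each. Since every library of a line must pass, leaving out a library cannot lower such a count. For the same reason PANC1, with 1 library, met a looser rule than the other lines. The 3 members of the list of MADE1 relatives outside the name (miR-570-3p, miR-570-5p and miR-603) had 1 read in all, and of 62 miRNAs of the other large primate-specific set, the chromosome 19 cluster, 2 were above the floor in a line.

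**Figure D2:**
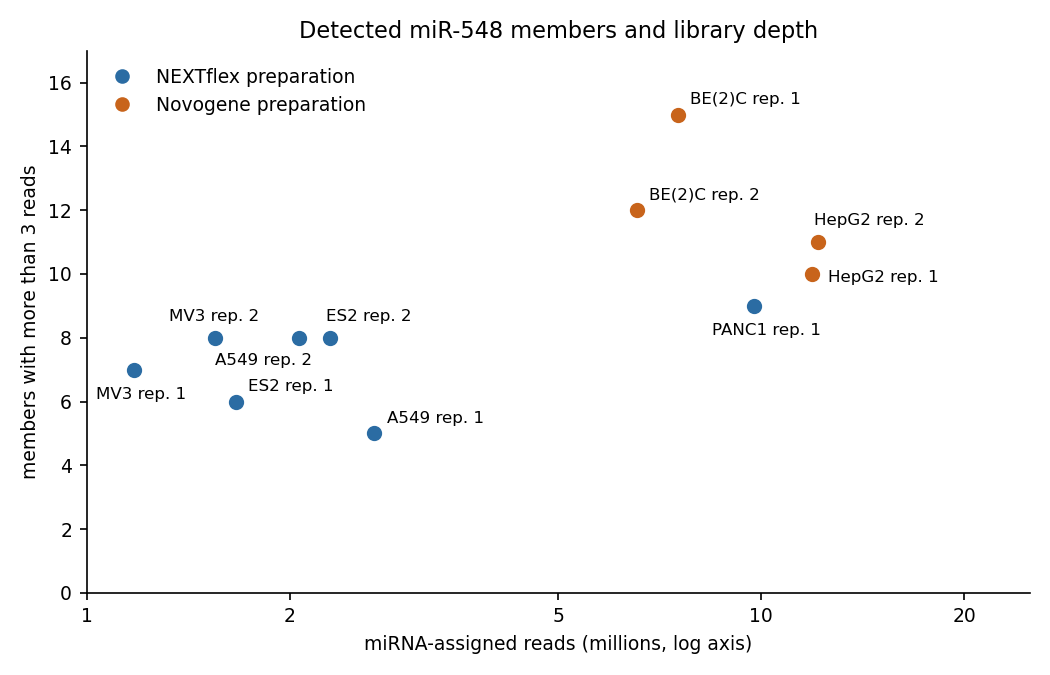
Number of members with more than 3 reads (y axis) against the miRNA-assigned reads of each of the 11 libraries (x axis, log scale, in units of 1000000 reads), with colours for the library preparation. The 6 libraries of A549, ES2 and MV3 had 5 to 8 members and the 5 deeper libraries 9 to 15.

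Summed over all members, the family made up a very small part of every library. The sums were 30.7 and 36.9 CPM in A549, 124 and 113 CPM in ES2, 112 and 88.4 CPM in MV3 and 102 CPM in PANC1 (95% Wilson interval 95.7 to 108 CPM, counting error only). They were 293 and 185 CPM in BE(2)C and 162 and 179 CPM in HepG2. All 4 Novogene libraries thus lay above all 7 NEXTflex libraries, and the highest library, BE(2)C replicate 1, gave 0.0293% of its reads to the family. The line means were 33.8 ± 4.36 (A549), 118 ± 7.78 (ES2), 100.01 ± 16.4 (MV3), 239 ± 76.7 (BE(2)C) and 170 ± 11.7 CPM (HepG2; SD, n = 2 each). Within the NEXTflex lines A549 was the lowest, below every library of the other lines. Since the tables of the lines are shares of a total, they were also scaled with TMM factors (trimmed mean of M-values) over all libraries. The sum then was 31.8 CPM in A549, 89.6 in ES2, 54.2 in MV3, 57.7 in PANC1, 158 in BE(2)C and 899 in HepG2, whose factors were 0.166 and 0.217 against 1.02 to 1.87 in the other libraries.

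The composition of the sum differed between the preparations. MiR-548o-3p was the most abundant member in each Novogene library, with 89.2% and 78.5% of the family's reads in BE(2)C and 92.3% and 90.8% in HepG2. In the NEXTflex libraries its share lay between 0.772% and 5.26%, and miR-548k or miR-548e-3p led. MiR-548k led in A549, ES2 and MV3 replicate 1, and miR-548e-3p in MV3 replicate 2 and PANC1. Without miR-548o-3p the sums were 32.5 ± 3.52 (A549), 117 ± 7.12 (ES2), 95.8 ± 15.05 (MV3), 35.6 ± 5.63 (BE(2)C) and 14.5 ± 2.78 CPM (HepG2; SD, n = 2 each), and 96.9 CPM in PANC1. On that measure the Novogene lines were no longer above the others on the CPM scale. With TMM factors the remaining sum was 75.7 CPM in HepG2 and 23.2 CPM in BE(2)C, so the place of HepG2 in this order depended on the scaling.

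**Figure D3:**
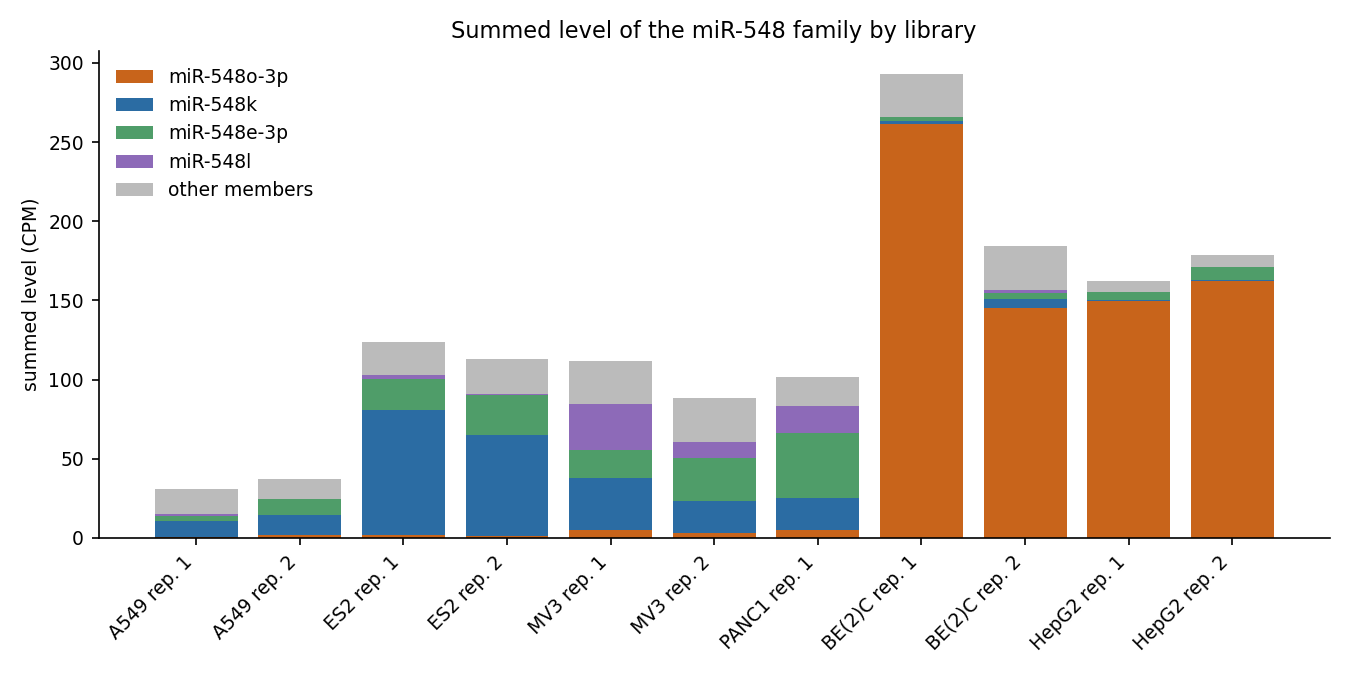
Summed level of the family in CPM (y axis) for each library, stacked by the 4 members with the highest line means and all others. MiR-548o-3p fills 78.5% to 92.3% of the bars of BE(2)C and HepG2 and at most 5.26% of the others.

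For the tests, a miRNA had to average 10 CPM or more in 1 of the lines, and those that did were fitted with limma on log2(CPM + 1), with Benjamini-Hochberg adjustment over all miRNAs tested and a threshold of 0.05. Of the members, 6 could be tested. All 6 differed across the 6 lines, but so did 99.3% of the 546 miRNAs tested, so this count says nothing particular to the family. Across the 4 NEXTflex lines 4 members could be tested, and all 4 differed, against 85.4% of 453 miRNAs. A member passed the filter only through the line in which it was high, and 74 members were not tested.

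MiR-548o-3p had 0.749 and 1.94 CPM in A549, 1.80 and 0.871 in ES2, 5.11 and 3.23 in MV3 and 5.03 in PANC1. It had 261 and 145 CPM in BE(2)C and 150 and 162 CPM in HepG2. The groups of libraries did not overlap: the lowest Novogene library was 28.4-fold above the highest NEXTflex library, and 31.5-fold with TMM factors. Of the 546 miRNAs tested, 6.04% had every Novogene library above every NEXTflex library, and by the log2 gap between these libraries miR-548o-3p ranked 2 among them. This comparison was chosen after its values were seen. With TMM factors 15.9% of the miRNAs stood in this order. In abundance order, miR-548o-3p was at rank 146 and 204 in BE(2)C and 59 and 61 in HepG2, and between 389 and 583 in the NEXTflex libraries. Across the 6 lines it differed with an adjusted p of 5.2e-06 in limma. Whether the line or the preparation carries this difference cannot be told apart.

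Within each preparation the line means of miR-548o-3p lay closer together on the CPM scale than between the preparations. Between BE(2)C (203 CPM) and HepG2 (156 CPM) the log2 difference was 0.32 ± 0.44 (SE; limma adjusted p = 0.52), and −0.10 without BE(2)C replicate 1. The median miRNA of this contrast was shifted by 2.79 on the log2 scale, and with TMM factors the difference turned to −2.68 (limma adjusted p = 0.00074), higher in HepG2. Among the NEXTflex lines MV3 and PANC1 stood above A549 and ES2, at 3.23 to 5.11 against 0.749 to 1.94 CPM, but these values rest on 2 to 6 reads in all libraries except that of PANC1 with 49. Its difference between A549 and MV3 was −1.16 ± 0.44 (SE; limma adjusted p = 0.054).

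The reads of miR-548o-3p were split almost evenly between its copies on chromosomes 7 and 20. In BE(2)C replicate 1, 962 and 1004 of 1966 reads were listed at them, and in HepG2 replicate 2, 995 and 973 of 1968. The chromosome 7 copy held between 48.8% and 50.8% in the 4 Novogene libraries, and each exact 95% interval included 50%. The levels therefore say nothing of which copy was read. MiR-548f-3p, with 5 listed copies, was not split evenly. Its chromosome 10 copy, MIR548F1 (54607874 to 54607957, minus strand, in an intron of PCDH15), held 91 of 99 reads in BE(2)C replicate 1 and 92 of 99 in replicate 2. These are 91.9% (exact 95% interval 84.7% to 96.4%) and 92.9% (86.0% to 97.1%), against 20% for an even split. The copies on chromosomes 2, 5 and 7 held 1 to 4 reads each and the X chromosome copy 0, which allows up to 3.66% of the reads by the exact interval. These copies are listed under the same mature sequence of 19 bases, which had 34 exact matches in the genome. How reads matching several places were counted is not known, so which copy gave the reads was not tested.

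**Figure D4:**
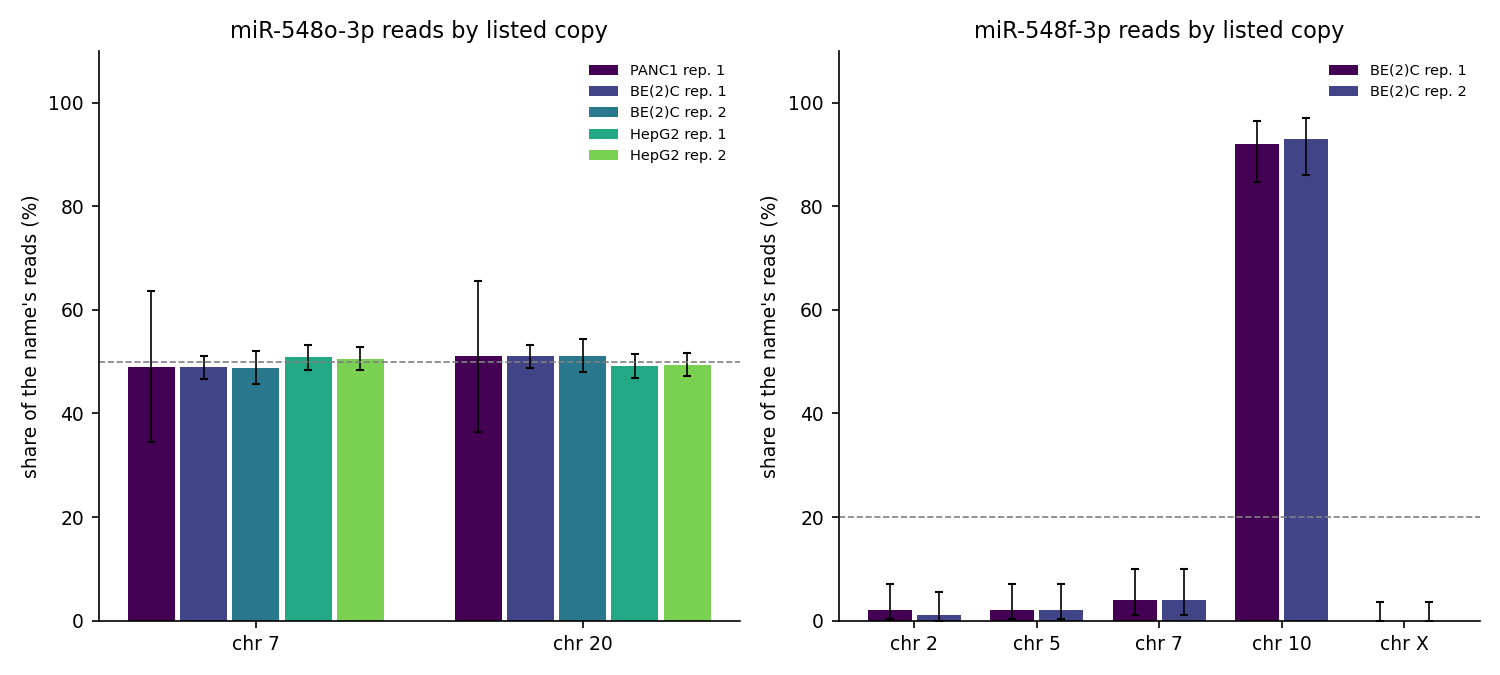
Share of a name's reads listed at each of its genomic copies (y axis, percent, bars with exact 95% intervals) in libraries with at least 10 reads of the name, and the even share (dashed line). MiR-548o-3p lay near 50% at both copies, and miR-548f-3p at 91.9% and 92.9% on chromosome 10.

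MiR-548k was highest in ES2, with 78.8 and 64.1 CPM. It had 32.4 and 20.01 CPM in MV3, 20.1 CPM in PANC1 (95% Wilson interval 17.5 to 23.1), and 9.74 and 12.6 CPM in A549. BE(2)C had 1.99 and 6.12 CPM, and HepG2 0.421 and 0.659 CPM, from 5 and 8 reads. On the CPM scale the order was thus ES2, then MV3 and PANC1, which overlapped, then A549, BE(2)C and HepG2. With TMM factors the means were 54.1 CPM in ES2, 14.2 in MV3, 11.4 in PANC1 and 10.5 in A549. HepG2 (2.78 CPM) then stood above BE(2)C (2.58 CPM). Between A549 and MV3 the difference of miR-548k was −1.13 ± 0.47 on the log2 scale (SE; limma adjusted p = 0.074). All Novogene libraries were below all NEXTflex libraries, as for 16.1% of the miRNAs tested (13.9% with TMM factors, under which miR-548k kept this order). Across the NEXTflex lines it differed with an adjusted p of 0.0085 in limma, and with 0.054 when ES2 replicate 1 was left out.

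MiR-548e-3p, which like miR-548k passed the floor in all 6 lines, had 41.3 CPM in PANC1 (95% Wilson interval 37.5 to 45.6), its highest level on the CPM scale. With TMM factors HepG2 stood above it, at 35.1 against 23.4 CPM. ES2 had 19.8 and 25.3 CPM and MV3 17.9 and 27.1 CPM, so these lines overlapped. A549 had 3.37 and 9.71 CPM, HepG2 5.30 and 8.32 and BE(2)C 2.53 and 3.36. Across the NEXTflex lines its adjusted p was 0.048 in limma, which rose to between 0.090 and 0.12 without A549 replicate 1 or any library of ES2 or MV3, and to 0.18 with TMM factors. MiR-548l was high in MV3 (29.0 and 10.3 CPM) and PANC1 (16.9 CPM; 95% Wilson interval 14.5 to 19.7) and between 0 and 2.41 CPM in each of the other 8 libraries. The groups did not overlap, although the MV3 libraries themselves differed widely. Across the NEXTflex lines the adjusted p was 0.017 in limma, and 0.068 and 0.085 without A549 replicate 1 or 2.

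MiR-548f-3p and miR-548h-5p were each high in a single line on the CPM scale. MiR-548f-3p had 13.2 and 15.1 CPM in BE(2)C (99 reads in each library), 0.505 and 0.494 CPM in HepG2 and at most 1.70 CPM in the NEXTflex libraries, from no more than 2 reads. Without BE(2)C replicate 1, the library with the high miR-122-5p level, BE(2)C stood at 15.1 CPM. With TMM factors miR-548f-3p averaged 9.23 CPM in BE(2)C and 2.66 CPM in HepG2. On that scale all Novogene libraries (2.28 CPM or more) lay above all NEXTflex libraries (0.934 CPM or less). MiR-548h-5p was read in MV3 alone, at 7.67 and 12.9 CPM from 9 and 20 reads, and had 0 reads in the other 9 libraries. Set against the highest floor among those libraries, 1.80 CPM, the MV3 mean of 10.3 CPM was 5.70-fold higher. This value leaves out the error of the MV3 mean itself, so it is not a lower bound. Its 20 reads in MV3 replicate 2 were spread over all 5 listed copies, with 2 to 6 reads each.

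**Figure D5:**
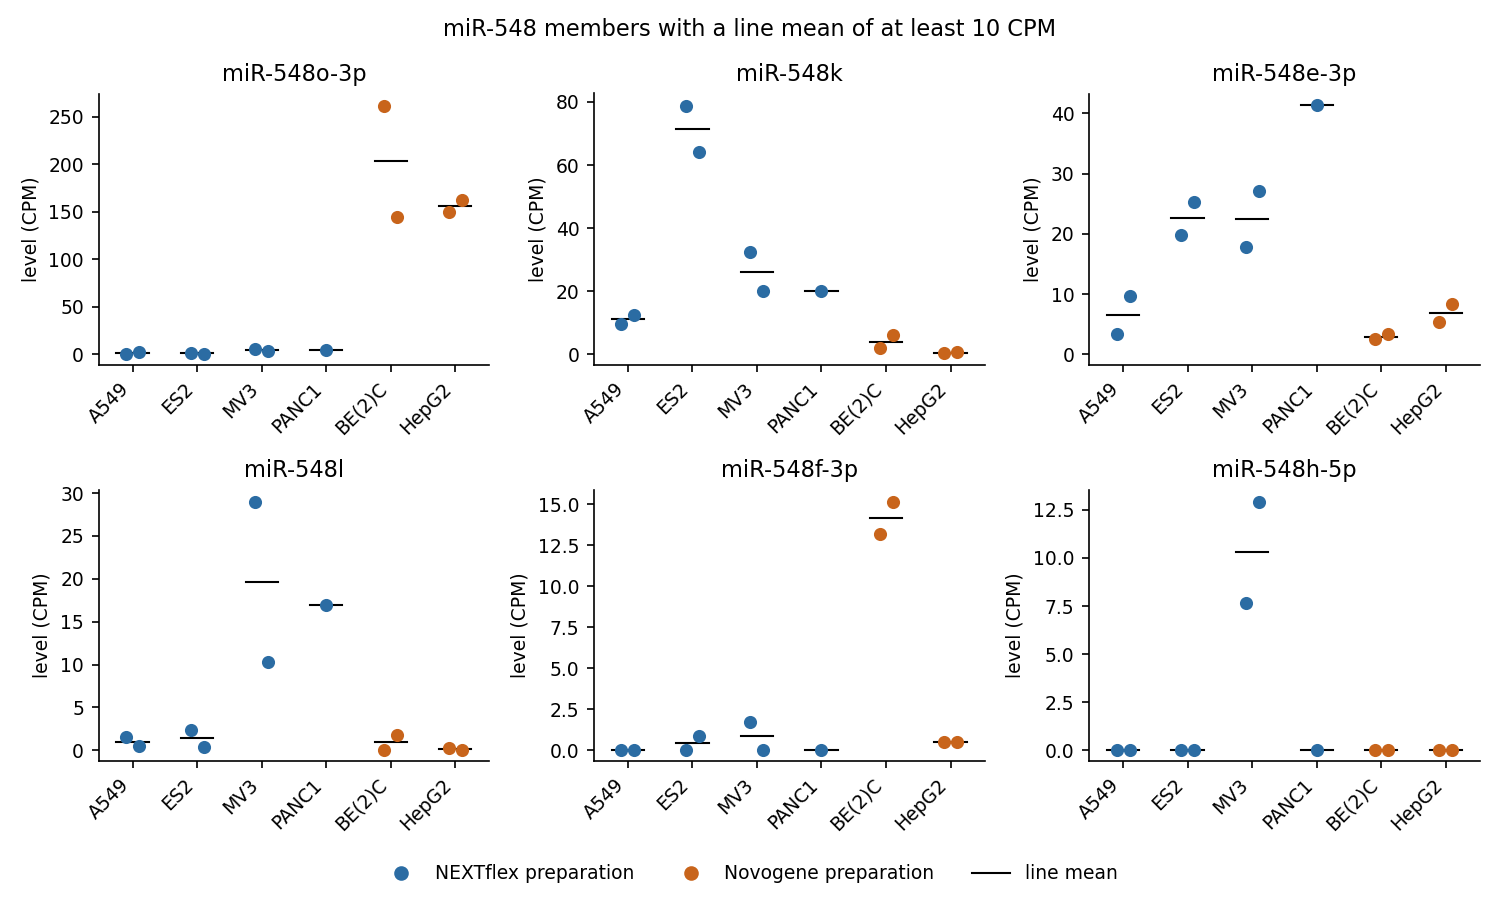
Levels in CPM (y axes, linear and different for each panel) of the 6 members whose line mean reached 10 CPM, with a point for each library, coloured by preparation, and a bar for the line mean. MiR-548o-3p is high in both Novogene lines, miR-548k in ES2, miR-548e-3p in PANC1 (with TMM factors in HepG2), miR-548l in MV3 and PANC1, miR-548f-3p in BE(2)C and miR-548h-5p in MV3.

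The contrasts between lines of one preparation were read for the same 6 members. All differences are on the log2(CPM + 1) scale, with SE, and were tested with limma in the fit over 6 lines. Between A549 and ES2, 2 of 6 members differed, against 50.5% of all 546 miRNAs. Both were lower in A549: miR-548k by −2.57 ± 0.47 (limma adjusted p = 0.0025) and miR-548e-3p by −1.77 ± 0.49 (limma adjusted p = 0.017), where the median miRNA differed by −0.17. The call on miR-548k held under every alternative run (limma, edgeR or DESeq2 adjusted p between 0.00042 and 0.019), whereas that on miR-548e-3p was lost without A549 replicate 1 (adjusted p = 0.083) or ES2 replicate 2 (0.084) and with DESeq2 (0.13). MiR-548h-5p was at 0 in both lines.

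Between A549 and MV3, 3 of 6 members differed, against 57.3% of all miRNAs, and all 3 were lower in A549. The differences were −3.46 ± 0.22 for miR-548h-5p (limma adjusted p = 1.3e-05), −3.26 ± 0.69 for miR-548l (0.0051) and −1.75 ± 0.49 for miR-548e-3p (0.017), with a median of −0.47 over all miRNAs. The call on miR-548e-3p was lost without A549 replicate 1 (adjusted p = 0.081), without MV3 replicate 2 (0.090) and with TMM factors (−0.99, adjusted p = 0.10). Without either BE(2)C library, which only enter through the common spread, 5 members passed. The fitted value of miR-548h-5p depends on the added 1 CPM, since A549 had 0 reads. All libraries outside MV3 had 0 reads of it, which lowers the pooled spread. Its SE and adjusted p therefore overstate the certainty. It passed the filter through MV3 alone, and without MV3 replicate 2 or with TMM factors it fell under the filter. On the recovered reads edgeR called miR-548h-5p (adjusted p = 0.033) but neither miR-548l (0.056) nor miR-548e-3p (0.17), and DESeq2 called none of the 3 (0.36, 0.21 and 0.37).

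Between ES2 and MV3, 2 of 6 members differed, against 32.8% of all miRNAs: miR-548h-5p by −3.46 ± 0.22 (limma adjusted p = 3e-05) and miR-548l by −3.06 ± 0.69 (limma adjusted p = 0.012), both lower in ES2. MiR-548l lost its call without ES2 replicate 2 (adjusted p = 0.071) or MV3 replicate 1 (0.078). MiR-548k was higher in ES2 by 1.44 ± 0.47 with an adjusted p of 0.0504, just outside the threshold, and by 1.89 with TMM factors (limma adjusted p = 0.013). On the recovered reads neither edgeR nor DESeq2 called miR-548h-5p (adjusted p = 0.052 and 0.41) or miR-548l (0.092 and 0.23), and both called miR-548k (0.017 and 0.0068). As in the contrast with A549, libraries without a read lower the pooled spread of miR-548h-5p, so its SE and adjusted p overstate the certainty. The median miRNA differed by −0.36. MiR-548k and miR-548l, both encoded on chromosome 11, had their highest line means in different lines, ES2 and MV3. For miR-548l, however, PANC1 (16.9 CPM) lay between the MV3 libraries (29.0 and 10.3 CPM).

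Between BE(2)C and HepG2, 2 of 6 members differed, against 83% of all miRNAs. MiR-548f-3p was higher in BE(2)C by 3.33 ± 0.47 (limma adjusted p = 0.00026), and by 3.43 without BE(2)C replicate 1. MiR-548k was higher in BE(2)C by 1.59 ± 0.47 (limma adjusted p = 0.014). The median miRNA of this contrast was itself 2.79 higher in BE(2)C, so that relative to it miR-548f-3p stood at 0.54 and miR-548k at −1.21. With TMM factors the difference of miR-548k was −0.16 (limma adjusted p = 0.76), and its call was also lost without BE(2)C replicate 2 (adjusted p = 0.066) or HepG2 replicate 1 (0.071). MiR-548e-3p differed by −0.97 ± 0.49 (limma adjusted p = 0.10) on plain CPM and by −3.63 with TMM factors (limma adjusted p = 9.3e-05), lower in BE(2)C. MiR-548f-3p, with 6 reads in each HepG2 library, was not called by edgeR (adjusted p = 0.15) or DESeq2 (0.51) on the recovered reads. With TMM factors it fell under the filter and was not tested.

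A further 14 members had a highest line mean between 1 and 10 CPM, and 10 of them are described here without a test. MiR-548j-5p, the 5p strand of a hairpin in an intron of TPST2, was read in all 11 libraries, from 0.337 CPM (HepG2 replicate 1) to 8.72 CPM (PANC1; 95% Wilson interval 7.05 to 10.8). The other NEXTflex libraries had 0.852 to 5.41 CPM and the Novogene libraries 0.337 to 2.45 CPM, so the preparations overlapped. MiR-548n, whose gene lies in an intron of DPY19L1, had 7.82 and 6.10 CPM in ES2, and 9.74 CPM in A549 replicate 1 but 1.94 in replicate 2. It had 0 reads in PANC1, where the depth allows at most 0.308 CPM, and at most 1.94 CPM in the remaining libraries. With TMM factors its mean was highest in HepG2, at 9.05 CPM.

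MiR-548ay-3p was highest in MV3 (7.67 and 2.58 CPM) and PANC1 (4.41 CPM) and had 1 read in all 4 Novogene libraries. MiR-548t-5p, from an intron of GALNT7, had 4.001 CPM in PANC1 (39 reads; 95% Wilson interval 2.93 to 5.47) and otherwise 2 reads in BE(2)C replicate 2. MiR-548a-3p had 3.01 and 3.49 CPM in ES2, from 5 and 8 reads, and at most 0.749 CPM elsewhere. These 3 members each had their highest line mean in a NEXTflex line. MiR-548s, from an intron of LPIN1, reached 2.56 CPM (MV3 replicate 1), and miR-548ar-3p, from an intron of CDC16, reached 2.43 CPM in A549 replicate 2 and 1.86 and 1.83 CPM in BE(2)C. With TMM factors the mean of miR-548ar-3p was highest in HepG2, at 4.18 CPM. MiR-548aw had 2.93 CPM in BE(2)C replicate 1 and 0.459 in replicate 2, so its level there rested on the library that stood apart. MiR-548ao-3p had 1.86 and 1.07 CPM in BE(2)C and 2.18 CPM in ES2 replicate 2, and miR-548ao-5p, the other arm of that hairpin, was read only in MV3 replicate 1 (4.26 CPM, 5 reads). Both arms were therefore never read in one library.

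On the CPM scale the remaining 60 members had a line mean under 1 CPM in every line. Of them 20 had at least 1 read and 40 had none. In the shallowest library the floor was 2.56 CPM, above the highest line mean of all 60. A lack of reads there thus does not exclude such a level. With TMM factors some of the 60 stood higher in HepG2, miR-548u (mean 5.25 CPM) and miR-548az-5p (4.81 CPM) most of all. Both passed the floor in every library of BE(2)C and HepG2. The 3p members together made up 225 ± 82.1 CPM in BE(2)C and 165 ± 11.9 CPM in HepG2 (SD, n = 2 each), most of it miR-548o-3p. In the NEXTflex lines the members without an arm in their name, miR-548k and miR-548l among them, had the highest sum in A549 (18.0 ± 4.19 CPM), ES2 (83.0 ± 11.9 CPM) and MV3 (50.4 ± 20.2 CPM), and the 3p members had it in PANC1 (50.8 CPM). The members whose names end in 5p had the lowest sum in each line, from 1.54 ± 0.507 CPM in HepG2 to 15.7 ± 4.20 CPM in MV3 (SD, n = 2 each). These sums follow the ending of the name alone. The sequence of miR-548av-5p lies inside miR-548k, which was counted without an arm, so the sums do not compare the strands of the hairpins.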

How the data were processed

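Small RNA-seq tables of 11 libraries were used. The authors deposited CPM for PANC1 and, for the other 5 lines, a signal, namely CPM over a factor that scales the libraries of that table to each other. All nonzero values (100% in each library, tolerance 0.01 reads) were whole multiples of the value of 1 read, so whole reads were recovered and rescaled to CPM per library; the design had assumed CPM throughout. The submitters' processing notes name cutadapt 1.14, Bowtie2 2.3.2, SAMtools 1.5, featureCounts 1.5.3, edgeR 3.30.3 and hg38. How reads matching several places were counted is not given in the sources used here.

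Groups came from the cell line labels. Rows of one name were summed. Tests used limma 3.58.1 (R 4.3.3) on log2(CPM + 1) with line as factor, a trend, two-sided contrasts and a filter of 10 CPM in a line mean; the fit was tested on simulated data. The libraries of a line differed beyond sampling noise (chi-square per degree of freedom 8.53 to 849), so none was counted as a copy. Alternatives were TMM factors, the deposited values, pseudocounts 0.5 and 5, filters of 1 and 0 CPM, each copy kept, the replicate number as a block, edgeR 4.0.16 and DESeq2 1.42.0 on the reads, and leaving out each library.

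Named are all members whose line mean reached 10 CPM and the 10 highest of those between 1 and 10 CPM. The members and lists were chosen with earlier results of these data known. PCR reads without molecular identifiers are not independent molecules, so the intervals and floors hold for counting error alone.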

Additional observations from a re-analysis of the deposited data

How the results depend on the processing

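Of the counts of members above the floor, those with at least 1 read in every library were 7 in A549, 8 in ES2 and 20 in BE(2)C, and those with more than 10 reads were 1 in A549, 3 in ES2, MV3 and HepG2 and 5 in BE(2)C. At the level of the shallowest library BE(2)C and HepG2 had 2 each, with no count over all listed miRNAs to set beside it. With only 1 library of the line above the floor the counts were 9 in A549, 9 in ES2 and 17 in BE(2)C. For these settings too the share of all listed miRNAs by line was not computed. Leaving out a library, which cannot lower these counts, gave 5 to 8 in A549, 6 to 8 in ES2, 7 to 8 in MV3, 12 to 15 in BE(2)C and 10 to 11 in HepG2. The summed level moved with TMM factors to 89.6 CPM in ES2, 54.2 in MV3, 57.7 in PANC1, 158 in BE(2)C and 899 in HepG2, and with members of 1 listed copy only, which drops miR-548o-3p, to 21.3 in BE(2)C and 13.8 in HepG2. Leaving out a library gave sums of 30.7 to 36.9 CPM in A549, 113 to 124 in ES2, 88.4 to 112 in MV3, 185 to 293 in BE(2)C and 162 to 179 in HepG2.

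Under a filter of 1 CPM, 20 members were tested. Of these, 12 differed across 6 lines, 5 between A549 and MV3 and 5 between ES2 and MV3. With no filter 40 members were tested, and the counts were 12, 5 and 5, with 4 between A549 and ES2. The share of all miRNAs called was not computed under these filters or in any other alternative run. Such counts therefore say nothing particular to the family. TMM factors gave 1 of 4 members tested between A549 and MV3 and 2 of 3 across the NEXTflex lines. MiR-548f-3p and miR-548h-5p fell under the filter on that scale and were not tested. A pseudocount of 5 gave 1 between BE(2)C and HepG2. With edgeR the counts were 1 between A549 and MV3 and 1 between ES2 and MV3, and with DESeq2 they were 1 between A549 and ES2, 0 between A549 and MV3 (also 0 at an unadjusted p under 0.05), 1 between ES2 and MV3 and 2 across the NEXTflex lines. The member called between ES2 and MV3 by both tools was miR-548k, which limma had not called, and both limma calls were lost. The cause was not tested. Leaving out a library gave 5 to 6 across 6 lines, 2 to 3 across the NEXTflex lines, 1 to 2 between A549 and ES2, 2 to 5 between A549 and MV3, 1 to 3 between ES2 and MV3 and 1 to 3 between BE(2)C and HepG2. The direction between BE(2)C and HepG2 turned for miR-548o-3p to −2.68 (TMM factors), −2.85 (edgeR) and −2.71 (DESeq2) and for miR-548k to −0.16, −0.35 and −0.33. These 3 settings scale the libraries between lines, and plain CPM does not.

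Same-numbered libraries did not deviate together (10 pairs of lines, r between −0.05 and 0.11, 1 of them over 0.1), so the numbers were not taken as pairs. With the replicate number as a block, 6 members differed across 6 lines, 4 across the NEXTflex lines, 2 between A549 and ES2, 3 between A549 and MV3, 2 between ES2 and MV3 and 3 between BE(2)C and HepG2, where miR-548e-3p was added (adjusted p = 0.038).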
